A study of Arabidopsis thaliana with 24 samples.

Results

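The genes described here are 4 members of the fibrillin family on the array of the Arabidopsis thaliana sut2 mutant and its wild type. Fibrillins, also called plastid-lipid-associated proteins or plastoglobulins, are nucleus-encoded proteins that sit on plastoglobules (the lipid droplets attached to thylakoids), in the thylakoid membrane or in the stroma. They are known for coating and organising plastid lipids, for their link to the synthesis and storage of prenylquinones such as plastoquinone and tocopherol, and for their part in the response of leaves to strong light and cold. The members are AT2G35490 and AT2G46910, known as the plastoglobule fibrillins FBN2 and FBN8, AT5G09820, known as FBN5, which binds solanesyl-diphosphate synthases in plastoquinone synthesis, and AT5G19940, known as FBN6, a fibrillin of thylakoid and envelope linked to acclimation to light.

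They were chosen by gene identifier, as 4 named loci that each have a probe annotated with that gene alone, out of the 691 genes with such a probe. A further fibrillin with a probe of its own, FBN10, was not among the named loci and is given with the related genes at the end. The choice set no threshold on a measured value, but it was made with the differences between mutant and wild type already known. Those differences are therefore given for the 4 genes as a description, without a p-value, and a statement that a gene passed the threshold supports nothing beyond that description. The 2 further probes annotated with several fibrillins at once were left out of the group.

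The series compared 12 columns of wild type with 12 of the mutant, both of ecotype Wassilevskija and both total RNA, numbered 1 to 12 in each group. By its labels the mutant has no SUT2, a plasma membrane protein named there as sensor or transporter of sucrose; no probe was named for that gene, so its loss was not checked here. The sources used here give no tissue, plant age, growth conditions or allele, and do not say whether the columns came from separate plants, so the errors measure only the spread between columns, which may be technical. The columns held linear intensities of 3439 probes, scaled to a mean between 0.959 and 1.05, and between 4.25% and 7.94% of a column's values were 0. Consecutive numbers (1 and 2, 3 and 4, and so on) resembled each other, so values averaged over such sets, 6 per group, are given beside those of the 24 columns. In bulk RNA, fewer cells of a type and less RNA per cell cannot be told apart.

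FBN2 and FBN8, the plastoglobule proteins, had higher normalized values in the mutant, while the differences of FBN5 and FBN6 did not pass the threshold. No member was tested against another, so this split does not show that FBN2 and FBN8 differed from FBN5 or FBN6. Normalized values are log2 intensities brought to the same distribution in every column. On that scale FBN2 differed by 0.83 ± 0.19 (SE, n = 12 columns in each group), a 1.77-fold difference, and FBN8 by 0.89 ± 0.21, a 1.85-fold difference. FBN5 differed by 0.33 ± 0.31, with a 95% interval of -0.30 to 0.95 that holds the differences of FBN2 and FBN8. FBN6 differed by -0.45 ± 0.54, with a 95% interval of -1.56 to 0.67 that holds neither. Of the 4 genes, 2 passed an adjusted p of 0.05 in the limma fit to all probes, both higher in the mutant. Of all 3439 probes 34.8% passed, 18.8% as higher and 15.9% as lower. The median change of the 4 genes was 0.58, against 0.10 for all probes.

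The deposited intensities of FBN2 ran from 0.127 over a median of 0.260 to 0.399 in the 12 wild type columns. In the mutant they ran from 0.228 over a median of 0.297 to 0.455. The groups overlapped: wild type numbers 1, 7, 8, 10 and 11 lay between 0.127 and 0.209, while no mutant column lay below 0.228. After normalization wild type had a mean log2 value of -2.29 ± 0.60 and the mutant one of -1.47 ± 0.31 (SD, n = 12 columns). Of the 12 mutant values 6 lay above the highest wild type value, and 7 of the 12 wild type values lay below the lowest mutant value. The normalized value was higher in the mutant in 12 of 12 numbers, but the deposited intensity was so in only 7 of 12.

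FBN8 had intensities from 0.163 over a median of 0.486 to 0.869 in wild type. The mutant values ran from 0.404 over a median of 0.696 to 0.902. The ranges overlapped over most of their length, although the deposited intensity was higher in the mutant in 11 of 12 numbers and the normalized value in 12 of 12. Wild type had a mean normalized log2 value of -1.33 ± 0.68 and the mutant one of -0.44 ± 0.30 (SD, n = 12 columns), so that for FBN8, as for FBN2, the wild type columns were the more scattered. Only 3 mutant values exceeded the highest wild type value, while 8 wild type values lay below the lowest mutant value.

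FBN5, the partner of plastoquinone side-chain synthesis, had intensities from 0.149 over a median of 0.325 to 0.815 in wild type. In the mutant they ran from 0.167 over a median of 0.237 to 1.86. The median intensity was thus lower in the mutant and the mean normalized log2 value higher (-1.56 ± 0.84 against -1.88 ± 0.69, SD, n = 12 columns each), and 8 of 12 numbers were higher after normalization against 4 of 12 before it. The highest values of both groups stood at number 3. The mutant column of that number read 1.86, while its neighbour, number 4, read 0.291; the wild type columns read 0.815 and 0.479. Without mutant number 3 the normalized difference was 0.10 in place of 0.33.

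FBN6 gave the dimmest probe of the 4 and the widest spread. Its intensities ran from 0.0495 over a median of 0.161 to 0.322 in wild type. In the mutant they ran from 0.00503 over a median of 0.112 to 0.888, a 177-fold range, with the lowest value at number 5, below the floor of 0.00971 that was set before taking logs. The mutant range enclosed the whole wild type range. Wild type had a mean normalized log2 value of -2.98 ± 0.84 and the mutant one of -3.43 ± 1.77 (SD, n = 12 columns), and the difference changed from -0.76 without mutant number 11 to -0.15 without mutant number 5. The 95% interval of the difference, -1.56 to 0.67, holds changes of either direction.

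**Figure D1:**
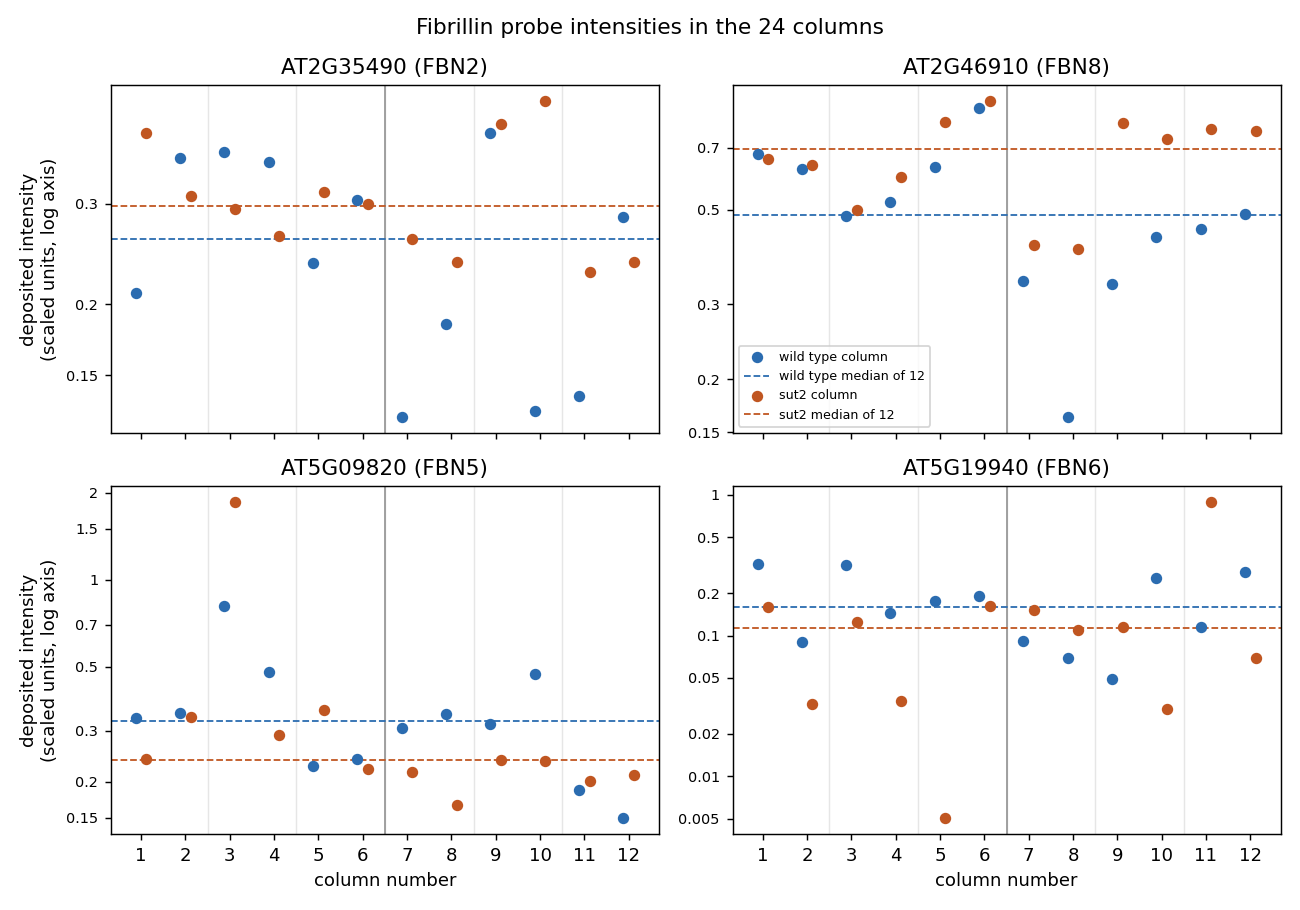
Deposited intensity of each fibrillin probe (scaled units, log axis, each panel with its own range) against column number; points are single columns of wild type (blue) and sut2 (orange), dashed lines are group medians, the dark vertical line separates numbers 1 to 6 from 7 to 12 and pale lines separate sets of consecutive numbers. FBN8 is higher in sut2 in 11 of 12 numbers, FBN5 has its highest values at number 3, and the sut2 values of FBN6 run from 0.00503 to 0.888.

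The 4 intensities come from 4 different probes, whose response to a given amount of RNA is not known, so their order is not an order of transcript abundance. Ratios of 2 members within a column can be compared between the groups, and apart from the 1 FBN6 value at the floor they do not depend on a factor that scales the whole column. The log2 ratio of FBN8 to FBN6 had a wild type mean of 1.65 ± 0.75 and a mutant mean of 2.94 ± 1.74 (SD, n = 12 columns). It was higher in the mutant in 10 of 12 numbers and in 6 of 6 sets. The mean ratio of FBN2 to FBN8 moved least, from -0.96 ± 0.72 to -1.10 ± 0.41. It was higher in the mutant in 4 of 12 numbers and in 1 of 6 sets. FBN8 against FBN5 went from 0.55 ± 0.96 to 1.18 ± 1.04 and was higher in 10 of 12 numbers, though in 4 of 6 sets. In each of these ratios the ranges of the groups overlapped. The other 3 ratios, FBN2 to FBN5, FBN2 to FBN6 and FBN5 to FBN6, had mutant means higher by 0.50, 1.16 and 0.66, with SDs of 0.80 or more. They were higher in the mutant in 8, 9 and 8 of 12 numbers, but in only 3, 4 and 4 of 6 sets.

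How large the differences of the single genes were depended on the scaling between columns. Wild type columns had a median intensity of 0.372 ± 0.032 and mutant columns one of 0.256 ± 0.020 (SD, n = 12), and the median change of all probes was 0.10 with quantile normalization, 0.06 with cyclic loess, 0.31 with each column centred on its median and -0.24 without normalization. The share of passing probes that were higher in the mutant moved with it, from 54.2% (648 higher, 548 lower) with quantile normalization to 67.5% (1053 and 506) with median centring and 14.6% (173 and 1016) without normalization. Without normalization FBN2 differed by 0.34 ± 0.20 and FBN8 by 0.47 ± 0.21, neither past the threshold, and FBN5 turned to -0.16 ± 0.31. FBN6 had a negative difference in all 4 scalings, from -0.82 to -0.28, none of which passed. Taken relative to the median of all probes in the same scaling, the difference of FBN2 lay between 0.57 and 0.83, that of FBN8 between 0.71 and 0.81, that of FBN5 between 0.08 and 0.32 and that of FBN6 between -0.58 and -0.40. Median centring shifts each column by a constant, so that relative to the median it gives the same values as no normalization, and the 4 scalings make only 3 separate comparisons. Each gene kept its sign in those 3.

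**Figure D2:**
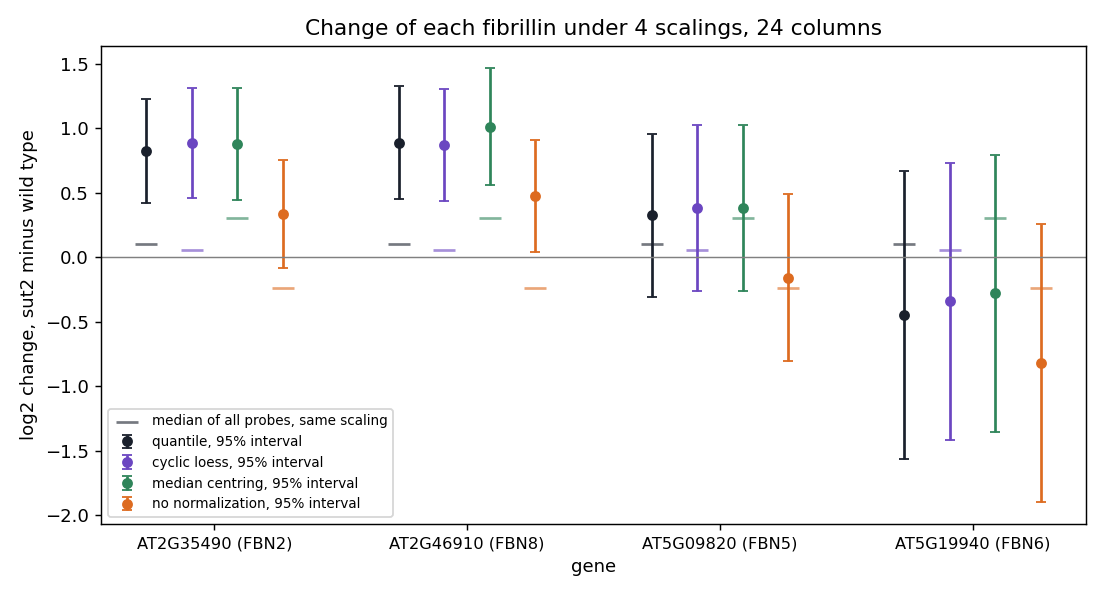
Log2 change, sut2 minus wild type, of each fibrillin in 24 columns under 4 scalings between columns (points, with 95% intervals from limma); short horizontal bars mark the median change of all 3439 probes in the same scaling. FBN2 and FBN8 lie above that median in each scaling, at 0.34 and 0.47 without normalization against 0.83 and 0.89 with quantile normalization, and FBN5 crosses 0 without normalization.

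Averaging consecutive numbers left the differences as they were and changed their errors. The SE rose to 0.23 for FBN2 and 0.29 for FBN8. FBN2 then passed the threshold and FBN8 did not, 1 of 4 genes against 13.1% of all probes. When the averages were also paired across the groups by their numbers, both passed, with SEs of 0.19 and 0.21, 2 of 4 genes against 22.1% of all probes. FBN2 and FBN8 were higher in the mutant in 6 of 6 sets, FBN5 in 4 and FBN6 in 2. The set differences of FBN2 ran from 0.09 in numbers 3 and 4 to 1.32 in numbers 7 and 8. Those of FBN8 ran from 0.32 to 1.43, those of FBN5 from -0.42 to 0.85 and those of FBN6 from -1.76 to 1.07.

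**Figure D3:**
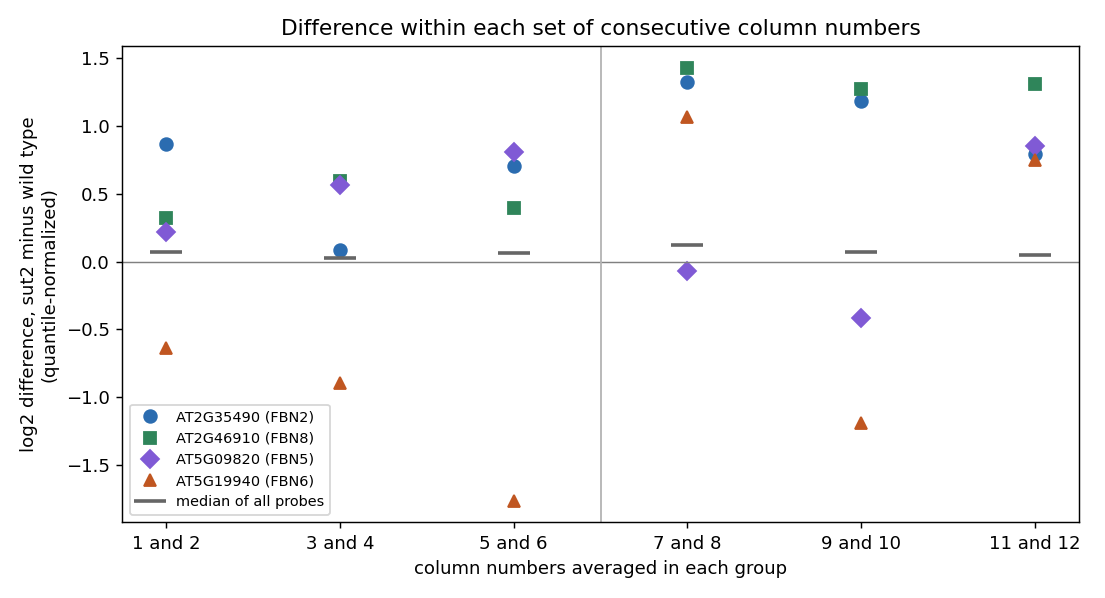
Difference of the averaged quantile-normalized log2 values, sut2 minus wild type, in each set of 2 consecutive column numbers; each symbol is 1 gene, grey bars give the median difference of all probes in the set, and the vertical line separates numbers 1 to 6 from 7 to 12. FBN2 and FBN8 are above 0 in all 6 sets, FBN5 in 4 and FBN6 in 2.

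The numbers were also divided into 1 to 6 and 7 to 12, a division known from earlier results of these data. Wild type columns had 146 to 161 values of 0 in numbers 1 to 6 and 203 to 238 in numbers 7 to 12. Mutant columns had 166 to 273 and 148 to 189. Whether this bears on the differences between the divisions was not tested. In wild type the intensity of FBN8 lay between 0.482 and 0.869 in numbers 1 to 6 and between 0.163 and 0.490 in numbers 7 to 12, ranges that overlap only at their ends. In the mutant the ranges were 0.4999 to 0.902 and 0.404 to 0.798. The normalized difference was accordingly 0.44 in the first division and 1.34 in the second. FBN2 differed by 0.55 in the first and 1.10 in the second. Its median deposited intensities were 0.330 and 0.161 in wild type and 0.304 and 0.249 in the mutant. In numbers 1 to 6 the mutant median was thus the lower before normalization. FBN5 differed by 0.53 and 0.12, and FBN6 by -1.10 and 0.21. The genes were not chosen by this contrast between divisions, which was tested with limma's interaction term on the averaged values. None of the 4 passed. The second division minus the first was 0.90 ± 0.45 for FBN8 (SE, adjusted p = 0.66), 0.55 ± 0.38 for FBN2 (adjusted p = 0.73), -0.41 ± 0.64 for FBN5 (adjusted p = 0.89) and 1.31 ± 0.76 for FBN6 (adjusted p = 0.71). Of all probes 1 passed, or 0.0291%. The 95% interval for FBN8, -0.09 to 1.89, includes both no difference and one larger than the change of FBN8 itself, with 3 sets per group and division.

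The members also differed in how well consecutive numbers repeated each other. For FBN8 the deviations from the group mean in odd and following even numbers correlated with r = 0.82 over the 12 sets, and their median gap was 0.13 on the log2 scale. FBN5 had r = 0.46 and a median gap of 0.36, and FBN2 r = 0.11 and a median gap of 0.26. The median over all probes was r = 0.57 with a gap of 0.27. For FBN6 the correlation was -0.50 and the median gap 1.78. A gap at least as wide was found in 20 (2.33%) of the 857 probes with varying values among the 25% of the array with the lowest mean, to which FBN6 belongs and whose median gap was 0.65. These correlations rest on columns that may share an array, and are given as a description.

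**Figure D4:**
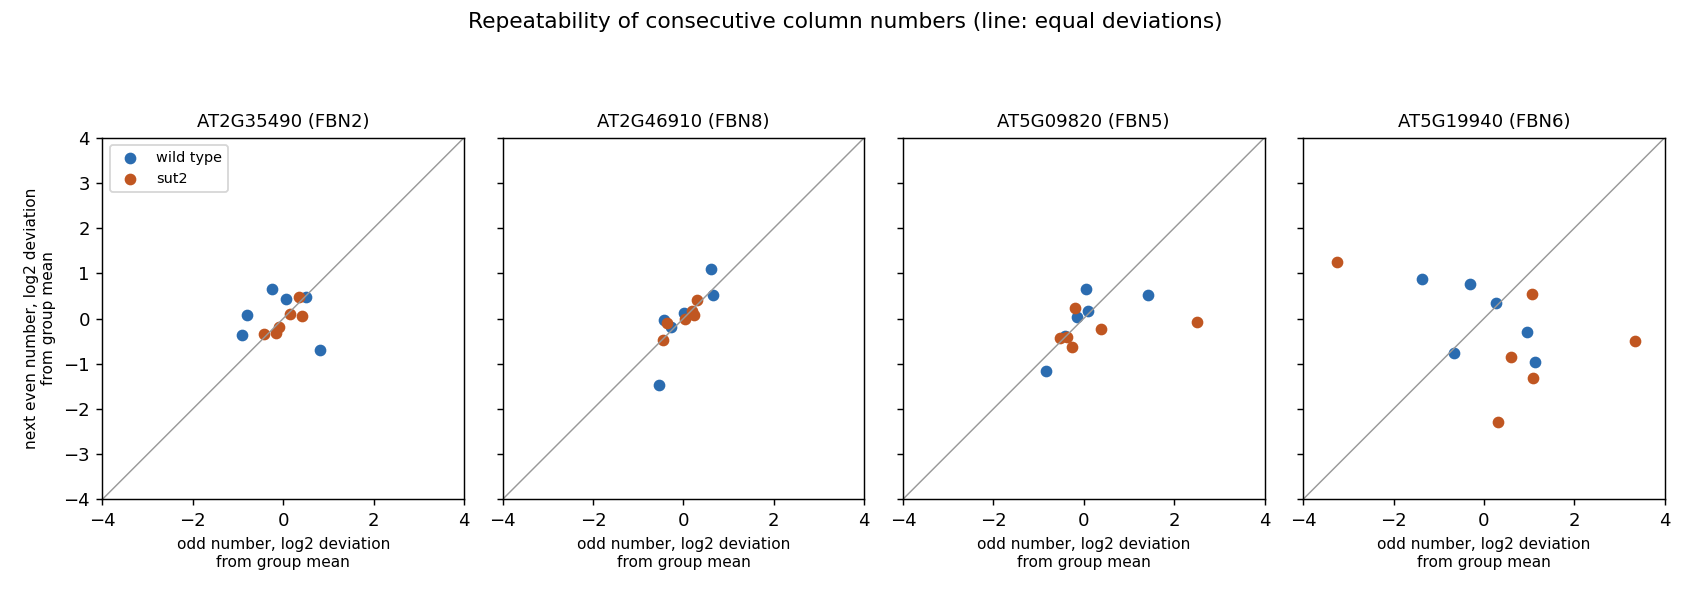
Deviation of the normalized log2 value from its group mean in each odd column number (x axis) against that in the following even number (y axis), 6 sets of wild type (blue) and 6 of sut2 (orange) for each fibrillin; the line marks equal deviations. FBN8 follows the line (r = 0.82), while FBN6 does not (r = -0.50) and FBN5 has 1 sut2 set, numbers 3 and 4, far to the right.

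Within the groups the members did not vary closely together. The deviations of FBN2 and FBN8 from their group means correlated with r = 0.36 over the 24 columns, 0.37 in wild type and 0.30 in the mutant. The other 5 pairs gave r between -0.22 (FBN2 and FBN6) and 0.12 (FBN8 and FBN6). The highest correlations with single-gene probes outside the family were larger. They were picked from many more pairs, so they cannot be set against those within the family. Among 687 such probes, the deviations of FBN2 were most like those of THIC (r = 0.72), the plastid enzyme that makes the pyrimidine part of thiamine. Next came the C2H2 zinc finger gene AT2G28200 (0.71) and AT4G29890 (0.70). Without the column in which FBN2 deviated most, wild type number 7, these were 0.65, 0.64 and 0.65. FBN8 was nearest to AT3G04210 (0.75), AT2G03390 (0.73) and AT3G61870 (0.73), which became 0.61, 0.57 and 0.63 without wild type number 8. FBN5 was nearest to AT1G11470 (0.83), to AT2G39000, an acetyltransferase of the GNAT family (0.69), and to AT4G02800 (0.62). Without mutant number 3 the first of these was still 0.62, but the second was 0.26. For FBN6 the highest value over the 24 columns was 0.45 (AT5G48830), followed by AT5G61450 (0.43) and AT1G01080 (0.42). Without mutant number 11 these were 0.16, 0.44 and 0.51. All these values share columns and scaling, and the highest of 687 correlations are high by selection.

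The 2 probes annotated with several fibrillins, among them members of the 4, had smaller differences than FBN2 and FBN8. One had intensities from 0.509 over a median of 0.756 to 1.06 in wild type and from 0.490 over a median of 0.688 to 1.11 in the mutant, a normalized difference of 0.37 ± 0.13 (SE, n = 12 columns each). This difference passed the threshold in 24 columns but not with consecutive numbers averaged. The deposited intensity of that probe was higher in the mutant in 5 of 12 numbers. The other ran from 0.105 over 0.200 to 0.407 in wild type and from 0.0411 over 0.169 to 0.366 in the mutant, with a difference of 0.20 ± 0.24 that did not pass. Which genes such probes read is not known.

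Around the fibrillins, 61 genes of the family, of plastoglobules, of prenylquinone synthesis, of named partners and of thylakoid formation were looked up, and 6 had a probe of their own. Of these 1 fell in the mutant, none rose and 5 did not pass, against 15.9% of all probes lower and 18.8% higher. The median change of the 6 was -0.16, against 0.10 for all probes. The lists were chosen with earlier results of these data known, so the p-values of these 6 genes are given only as a description. The one that fell was AT3G27110, the plastoglobule metallopeptidase PGM48, known for its part in leaf senescence. Its intensities ran from 0.151 over a median of 0.284 to 0.932 in wild type and from 0 over a median of 0.0873 to 0.180 in the mutant. The lowest wild type value lay below the highest mutant value, and the other 11 above it. The normalized value fell by 1.66 ± 0.42 (SE, limma adjusted p = 0.0038), with 12 of 12 numbers lower before and after normalization. Part of that size rests on mutant number 6, which read 0 and was set to the floor. The difference was -1.36 without that column and -1.43 with values at 0 left out. With consecutive numbers averaged its adjusted p was 0.056, and 0.017 once these averages were paired across the groups. The direction is opposite to that of FBN2 and FBN8, the 2 members that share the plastoglobule with PGM48, but this contrast was not tested. The direction of FBN2 and FBN8 was known when they were chosen. As 1 of 6 genes, PGM48 is also near the share of all probes that were lower.

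The 5 others were ABC1K6, GGR, VTE6, FZL and FBN10. ABC1K6 (AT3G24190), a kinase-like protein of plastoglobules, had intensities from 0.0766 over a median of 0.247 to 0.366 in wild type and from 0.00199 over 0.0990 to 0.198 in the mutant. Its difference of -0.86 ± 0.36 did not pass (limma adjusted p = 0.062), and 3 of 12 numbers were higher. The difference was -0.56 without mutant number 6, its lowest column, and it passed when any 1 of wild type numbers 7 and 8 and mutant number 9 was left out (-0.98, -0.94 and -0.97, adjusted p from 0.036 to 0.047). In prenylquinone synthesis, the geranylgeranyl reductase GGR (AT1G74470) ran from 2.86 over a median of 3.31 to 4.04 in wild type and from 2.75 over 3.66 to 4.76 in the mutant (0.0040 ± 0.11, adjusted p = 0.98). With median centring it passed as higher (0.66, adjusted p = 0.00011). The phytyl-phosphate kinase VTE6 (AT1G78620) had a difference of 0.71 ± 0.47 (adjusted p = 0.25). With the replicate number as a block its adjusted p was 0.031, and 0.13 in the averaged and paired sets; it also passed without mutant number 12 (1.01, adjusted p = 0.047). FZL (AT1G03160), a dynamin-like protein of thylakoid and envelope, had a difference of -0.32 ± 0.25 (adjusted p = 0.34), with 12 of 12 numbers lower. With the replicate block its adjusted p was 0.0042, and 0.11 in the averaged and paired sets. The fibrillin FBN10 (AT1G51110) was also dim, from 0.00119 over a median of 0.0864 to 0.229 in wild type and from 0 over 0.0730 to 0.141 in the mutant (0.39 ± 0.49, adjusted p = 0.57). Its difference was 0.16 without wild type number 10 and 0.64 without mutant number 4.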

How the data were processed

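The authors deposited linear intensities; the sources used here do not say how they were made or scaled. They lie between 0 and a ceiling of 100. Groups and numbers come from the titles. A floor at the 1st percentile of positive values (0.00971) was applied before log2, and columns were quantile-normalized, which hides a change common to most transcripts. The test was limma (version 3.58.1, R 4.3.3), mutant minus wild type, 24 columns, group as the only term, Benjamini-Hochberg over 3439 probes, and was checked on simulated data. The simulated columns were drawn independently of each other, whereas consecutive numbers in these data resembled each other. The check therefore does not cover false calls that come from this likeness. Of the probes, 692 have 1 gene, 870 several and 1877 none; the platform annotation behind the names may be outdated, and 690 of the 692 matched a table of the TAIR10.1 assembly. The probes name no genome build, so coordinates are left out.

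Members and gene lists were chosen with earlier results of these data known. Named genes are the 4 members, every measured gene of the lists, and for each member the 3 single-gene probes with the highest r of deviations. Same-numbered columns of the 2 groups had correlated deviations in all 12 pairs (r 0.14 to 0.40), and the paired fits rest on this likeness. Columns of different numbers were not compared between the groups, so it is not established that the numbers pair the columns. No label states such a pairing. Consecutive numbers correlated by 0.12 to 0.55. Alternatives changed the scaling, floor, zeros, dim probes, pairing, averaging, division, weights and single columns. The number of columns limits the precision, and no measure of background was used.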

Additional observations from a re-analysis of the deposited data

Results flagged for a closer look

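With consecutive numbers averaged, the mutant value of FBN5 (AT5G09820) in numbers 3 and 4 was -0.34 on the normalized log2 scale, while the other 5 sets lay between -2.03 and -1.48. The gap to the nearest set took up 0.670 of the whole range, above the 0.625 that marks a value far from the others among 6. It comes from number 3 (intensity 1.86) and not from number 4 (0.291), and the wild type set of the same numbers was also the highest of its group, at -0.91. A total of 8 groups of sets were examined in this way, and chance marks about 1 in 20 groups; the 12 columns of a group are too many for this rule.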

How the results depend on the processing

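Without normalization the change of FBN2 (0.34) and FBN8 (0.47) no longer passed and FBN5 (-0.16) changed sign. FBN8 (0.89) also did not pass with consecutive numbers averaged, nor in numbers 1 to 6 alone (0.44), and FBN6 changed sign in numbers 7 to 12 alone (0.19). In the other alternatives the 4 genes kept direction and side of the threshold: FBN2 passed in 12 of 13, FBN8 in 10 of 13, FBN5 in 0 of 13 and FBN6 in 0 of 12, since FBN6 was not among the probes kept when dim ones were left out. With 1 column left out the changes were 0.74 to 0.90 (FBN2), 0.76 to 0.99 (FBN8), 0.10 to 0.46 (FBN5) and -0.76 to -0.15 (FBN6), with no change of call, and 1088 to 1227 probes passed. The 1196 passing probes became 449 in averaged sets, 759 in averaged and paired sets and 662 in numbers 1 to 6; the replicate block gave 1477 and changed no call of the 4 genes, but those of VTE6 and FZL. The 1 probe passing the interaction became 5 in 24 columns and 0 without normalization, with median centring and with paired sets, where 192, 229 and 337 had an unadjusted p under 0.05 (257 in the first fit). The settings were applied to the 6 list genes after their values were seen. PGM48 passed in 36 of 37 (adjusted p from 0.00016 to 0.056), ABC1K6 in 6 of 36 (0.0050 to 0.43), VTE6 in 3 of 37 (0.0059 to 0.74), FZL in 3 of 37 (0.0042 to 0.90) and GGR in 1 of 37 (0.00011 to 0.9998). FBN10 changed sign without normalization (-0.19) and in numbers 7 to 12 (-0.27), FZL with median centring (0.29) and array weights (0.046), and GGR with cyclic loess (-0.020), zeros left out (-0.0011), array weights (-0.0072) and numbers 7 to 12 (-0.25); with 1 column left out GGR ran from -0.023 to 0.046. The causes were not tested.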
